A study of Homo sapiens with 12 samples.

Results

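Cells carrying hairpin 1 and cells carrying hairpin 3 against RARRES2 were compared with each other. The comparison used 6 of the 12 messenger RNA libraries of the series, 3 for each hairpin, named shRARRES2_1 and shRARRES2_3 as in the labels. All libraries came from 786-O cells, a long-established human line of clear cell kidney cancer without functional VHL protein, grown in DMEM with serum. Every group had received a lentivirus, so both hairpins here share the vector type, the cell line and the intended target, and the control of the series carried a hairpin against GFP (shGFP). Of 58381 genes in the deposited table, 14121 had at least 1 CPM (counts scaled to library depth by TMM, the trimmed mean of M-values) in at least 3 of these 6 libraries and were tested. The hairpin sequences and the time after infection are not given in the sources used here. Nothing in the labels states that replicates are separate cultures, so the p-values reflect no more than the spread among these libraries, which may be technical.

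RARRES2 encodes chemerin, a secreted protein that is cut by proteases into an attractant for leukocytes and that also acts on adipocytes. It is sensed by the receptors CMKLR1 and GPR1, while CCRL2 binds and presents it at the cell surface. A short hairpin RNA is processed into a small interfering RNA that guides an Argonaute protein to transcripts it pairs with, and its seed can also pair with transcripts other than the intended one. In VHL-deficient renal carcinoma the hypoxia-inducible factors stay active in normal oxygen, and EPAS1 (HIF-2α) is the one that drives growth.

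Libraries did not group by hairpin alone, which bears on every result that follows. Across the 14121 genes, the log2(CPM + 1) values of shRARRES2_1 replicate 1 correlated more with shRARRES2_3 replicate 1 (r = 0.978) than with the other libraries of its own hairpin (r = 0.936 and 0.929). Each r was taken across genes, and genes are not independent replicates of each other. The median absolute log2 difference between single libraries of the 2 hairpins was 0.285, 0.574 and 0.326 for replicate numbers 1, 2 and 3. Within shRARRES2_1 it was 0.599 between replicates 1 and 2. Within shRARRES2_3 it was 0.82 between replicates 1 and 2, 0.523 between 1 and 3 and 0.482 between 2 and 3. Between the hairpin means it was 0.314, but means of 3 libraries vary less than single libraries. Replicates 2 and 3 of shRARRES2_1 lay closer to each other (r = 0.997) than to the same number of shRARRES2_3 (0.887 and 0.959). Those of shRARRES2_3 correlated at 0.921, above the 0.887 between the replicate 2 libraries. That was below the 0.959 between the replicate 3 libraries and the 0.96 between shRARRES2_3 replicate 3 and shRARRES2_1 replicate 2. With shRARRES2_1 replicate 1, however, shRARRES2_3 replicate 3 correlated at 0.916, below its 0.947 with replicate 1 of its own hairpin. shRARRES2_1 replicates 2 and 3 were nearly alike, with a median absolute log2 difference of 0.0878. Their reads still differed by more than sampling noise (chi-square per gene 3.17, where sampling alone gives about 1). Both were kept, though this does not show that they are separate cultures. Both replicate 1 libraries had fewer genes with any read, 21217 and 20932, than the other 4 libraries, 26487 to 27484. The first principal component, with 59.5% of the variance, had shRARRES2_1 replicate 1 and shRARRES2_3 replicate 1 at -71.3 and -57.8 and shRARRES2_3 replicate 2 at the other end, at 90.0. Depth was 17410415 to 23594195 reads on genes, and mitochondrial transcripts took 3.69% to 5.74% of the signal. Summed over marker lists, renal carcinoma genes stood at 2110 to 3420 CPM with shRARRES2_1 and 1020 to 3430 CPM with shRARRES2_3. The members of that list were unequal. Over the 6 libraries VIM stood at 262 to 2105 CPM, NNMT at 176 to 764 CPM and PAX8 at 239 to 400 CPM. CA9 stood at 0.727 to 3.4 CPM, and LRP2 had 0 to 2 reads. Leukocyte markers summed to 1.41 to 3.4 CPM and 1.55 to 2.67 CPM, endothelial markers to 3.15 to 4.31 CPM and 2.54 to 3.73 CPM, and fibroblast markers to 13.9 to 24 CPM and 14.5 to 29.4 CPM. Keratinocyte markers summed to 55.6 to 134 CPM with shRARRES2_1 and 49.3 to 108 CPM with shRARRES2_3. KRT10 made up most of these sums, at 113, 55.6 and 51.7 CPM with shRARRES2_1 and 87.9, 40.1 and 61.2 CPM with shRARRES2_3. KRT5 stood at 0.716 to 8.18 CPM over these libraries.

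**Figure D1:**
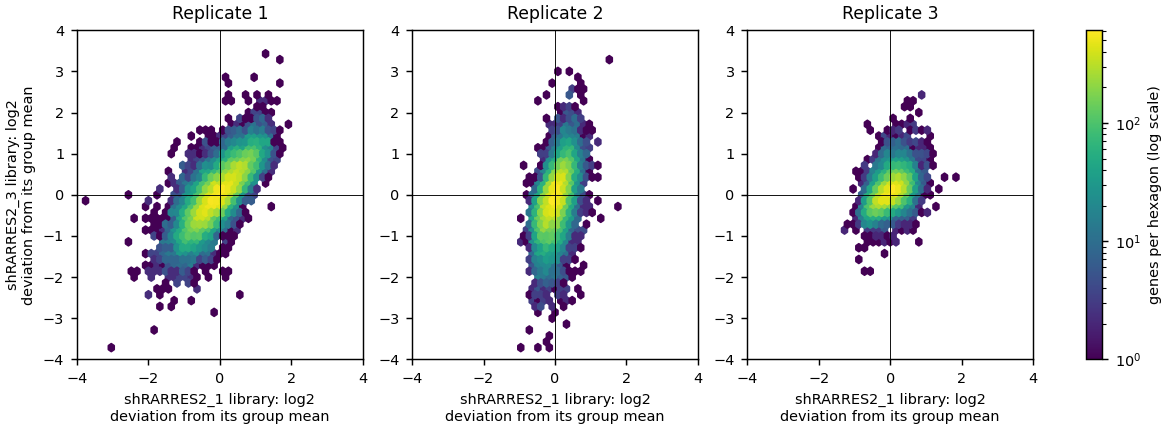
Each panel plots, for 1 replicate number, the deviation of every tested gene from its group mean in the shRARRES2_1 library (x axis, log2) against that in the shRARRES2_3 library (y axis, log2), with the number of genes per hexagon on a log colour scale. The cloud of replicate 1 lies along the diagonal (correlation 0.766), and those of replicates 2 and 3 are narrower in shRARRES2_1 (0.499 and 0.436).

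The genes behind that shared deviation were many in replicate 1. In both hairpins, 1202 genes stood in replicate 1 at least 1 log2 unit above the mean of the other libraries of the same hairpin, and 1094 genes at least 1 log2 unit below it. For replicate 2 the counts were 97 and 27, and for replicate 3 they were 65 and 27. These are not independent of replicate 1, which is part of the mean they were set against. KRT8, a keratin of simple epithelia, stood at 3531, 791 and 766.5 CPM with shRARRES2_1 and at 4050, 131 and 898 CPM with shRARRES2_3. Its replicate 1 library was the high one in both groups. RPS26, of the small ribosomal subunit, stood at 613, 139 and 130.2 CPM with shRARRES2_1 and at 552, 90.5 and 112.5 CPM with shRARRES2_3. CDC20, an activator of the anaphase-promoting complex, was at 973, 171 and 159 CPM with shRARRES2_1 and at 848, 13.4 and 204 CPM with shRARRES2_3, so that shRARRES2_3 replicate 2 was in addition the lowest of the 6. These genes were named by the size of the shared deviation, as a description without a test.

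The targeted gene overlapped between the hairpins. RARRES2 (ENSG00000106538.9, minus strand of chromosome 7, 150338317 to 150341674) stood at 40.5, 41.04 and 37.5 CPM with shRARRES2_1 (mean 39.7 ± 1.91, SD, n = 3) and at 44.2, 49.7 and 40.3 CPM with shRARRES2_3 (mean 44.8 ± 4.72, SD, n = 3). All 6 values lay far below the shGFP libraries, at 809, 483 and 469.5 CPM. The difference of -5.1 CPM (shRARRES2_1 minus shRARRES2_3) had an exact two-sided permutation p = 0.3, where 0.1 is the smallest that the 20 splits allow. On the log2(CPM + 1) scale the difference was -0.17 with a 95% interval of -0.71 to 0.38, and limma gave an adjusted p = 0.917. In bulk RNA, fewer cells with a transcript and less of it per cell cannot be told apart.

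Of the chemerin receptors, CCRL2 was the one whose libraries separated. It stood at 13.2, 7.85 and 7.26 CPM with shRARRES2_1 and at 2.96, 0.549 and 2.42 CPM with shRARRES2_3, and every shRARRES2_1 library was higher (log2 difference 1.88, SE 0.44, limma adjusted p = 0.327). The shGFP libraries stood at 0, 0.676 and 0.222 CPM, below all those of shRARRES2_1 and overlapping those of shRARRES2_3. GPR1 stood at 6.21, 3.198 and 3.72 CPM with shRARRES2_1 and at 11.01, 1.496 and 13.9 CPM with shRARRES2_3, where replicate 2 was the lowest of the 6 libraries and the others the highest. CMKLR1 had 0 to 3 reads in each of the 6 libraries and was not tested. EPAS1 was at 232, 265.5 and 268 CPM with shRARRES2_1 and at 308, 442 and 299.7 CPM with shRARRES2_3, lower in each shRARRES2_1 library (log2 difference -0.43, SE 0.29, limma adjusted p = 0.768).

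No gene passed the test between hairpins. With limma on the 6 libraries, 0 of 14121 genes had an adjusted p under 0.05 (0%), and the smallest adjusted p was 0.104. An unadjusted p under 0.05 was reached by 1222 genes (8.65%), of which 778 were higher (5.51%) and 444 lower (3.14%) with shRARRES2_1. When the nearly alike shRARRES2_1 replicates 2 and 3 were averaged, limma called 0 genes and 552 of 14121 reached an unadjusted p under 0.05. The smallest limma adjusted p was then 0.945. edgeR on the recovered reads also called 0 genes, with 1185 (8.39%) at an unadjusted p under 0.05. With the replicate number as a block, limma again called 0 genes, but 2697 (19.1%) had an unadjusted p under 0.05, 1528 higher (10.8%) and 1169 lower (8.28%), and the smallest adjusted p was 0.0524. When the spread was estimated from all 12 libraries, 29 genes were called (0.205%), 20 higher (0.142%) and 9 lower (0.0637%). DESeq2 on the recovered reads of the 6 libraries called 320 (2.27%), 196 higher (1.39%) and 124 lower (0.878%), and these included all 29.

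Separation of the libraries was commoner than calls. For 1311 genes (9.28%) all 3 shRARRES2_1 libraries lay above all 3 shRARRES2_3 libraries, and for 1043 genes (7.39%) all lay below. All 3 same-numbered pairs were higher with shRARRES2_1 for 3386 genes (24%) and lower for 3071 (21.7%). The log2 difference was 1 or more for 701 genes (4.96%) and -1 or less for 320 (2.27%), with a median of 0.03 over all genes tested. The 29 genes called with 12 libraries had non-overlapping groups and 1 direction in all 3 pairs in 29 of 29 cases.

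**Figure D2:**
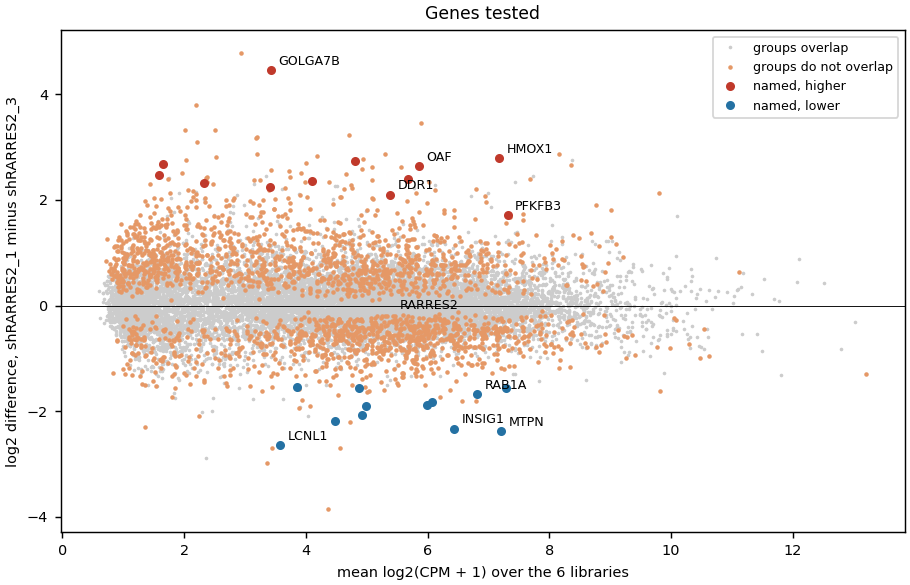
The log2 difference between hairpin means (y axis, shRARRES2_1 minus shRARRES2_3, on the log2(CPM + 1) scale) against the mean level over the 6 libraries (x axis, same scale) for the 14121 genes tested; orange points have groups that do not overlap, red and blue points are the 24 genes described by name. GOLGA7B lies highest among the named genes, at 4.46, and LCNL1 lowest, at -2.64, while RARRES2 lies near 0, at -0.17.

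With 0 genes called, the 12 genes in each direction with the smallest unadjusted p among those with separated libraries and at least 5 CPM in the higher group are described by their values. Their separation is how they were chosen and supports nothing further. The genes higher with shRARRES2_1 come first. DDR1, a receptor tyrosine kinase activated by collagen (plus strand of chromosome 6, 30876421 to 30900156), stood at 86.7, 85.2 and 84.4 CPM with shRARRES2_1 and at 20.2, 20.15 and 17.3 CPM with shRARRES2_3. The spread within each hairpin was small against the gap (log2 difference 2.10, SE 0.23, limma adjusted p = 0.104 with 6 libraries and 0.00913 with 12). The shGFP libraries, at 88.4, 51.97 and 77.7 CPM, overlapped those of shRARRES2_1 and lay above those of shRARRES2_3. FGFRL1, a receptor that binds fibroblast growth factors but lacks a kinase domain, stood at 166, 96.6 and 96.9 CPM with shRARRES2_1 and at 15.8, 25.3 and 24.3 CPM with shRARRES2_3. Its shGFP libraries, at 123, 74 and 97.3 CPM, again overlapped those of shRARRES2_1. TNFRSF21, a death-domain receptor, stood at 30.6, 43.1 and 40.5 CPM with shRARRES2_1 and at 6.955, 7.43 and 5.54 CPM with shRARRES2_3, and its shGFP libraries lay between, at 19.1, 20.7 and 12.6 CPM.

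HMOX1, the inducible enzyme that breaks down heme (plus strand of chromosome 22, 35380361 to 35394214), stood at 503, 336 and 323 CPM with shRARRES2_1 and at 83.75, 38.6 and 48.96 CPM with shRARRES2_3. Its mean was 6.79-fold higher with shRARRES2_1 (388 ± 100 against 57.1 ± 23.7 CPM, SD, n = 3 each; log2 difference 2.79, SE 0.36, limma adjusted p = 0.135, 0.0284 with 12 libraries). The shGFP libraries, at 71.9, 167 and 62.8 CPM, lay below all those of shRARRES2_1 and overlapped those of shRARRES2_3. PFKFB3, which makes the activator of phosphofructokinase and so speeds glycolysis, stood at 300, 282 and 279.5 CPM with shRARRES2_1 and at 98.99, 77.6 and 86.03 CPM with shRARRES2_3, with shGFP between at 133, 149 and 109 CPM. ACSS1, the mitochondrial acetyl-CoA synthetase, stood at 26.2, 21.2 and 19.7 CPM with shRARRES2_1 and at 3.07, 4.04 and 4.61 CPM with shRARRES2_3, and NR0B1, an orphan nuclear receptor also called DAX1, at 8.125, 12.6 and 10.5 and 1.275, 1.05 and 1.44 CPM. In both the groups were several-fold apart and shGFP lay between them.

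GOLGA7B, an accessory protein of palmitoyltransferases (plus strand of chromosome 10, 97850239 to 97871580), had the widest gap of the 24. It stood at 30.9, 60.5 and 64.9 CPM with shRARRES2_1 and at 2.32, 0.349 and 1.72 CPM with shRARRES2_3, while shGFP, at 0.965, 0.935 and 1.91 CPM, overlapped shRARRES2_3 (log2 difference 4.46, SE 0.46, limma adjusted p = 0.104, 0.00868 with 12 libraries). CRTAC1 overlaps it on the other strand, and since strand use in counting is not stated their reads may be shared. ABCC9, the regulatory subunit of ATP-sensitive potassium channels, stood at 4.195, 6.74 and 7.73 CPM with shRARRES2_1 and at 0.406, 0.0499 and 0.373 CPM with shRARRES2_3, and the long noncoding RP11-95M15.3 at 5.68, 7.705 and 7.59 and 0.174, 0.0998 and 0.466 CPM. In shRARRES2_3 both rested on few reads, since 3 reads amount to 0.14 to 0.174 CPM, so that no fold is given. OAF stood at 180.1, 131 and 126.5 CPM with shRARRES2_1 and at 23.4, 19.01 and 24.7 CPM with shRARRES2_3, with shGFP between at 88.6, 49.9 and 102 CPM. WSCD1 stood at 79.5, 70.1 and 65.7 CPM and at 15.01, 5.24 and 11.9 CPM.

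The 12 genes lower with shRARRES2_1 included 4 members of the list of actin and vesicle trafficking genes. The list was drawn up with earlier results of these data known, so this count supports nothing further. That list as a whole lay more often above 0 (22 of 30, median 0.27, but -0.11 without shRARRES2_3 replicate 2), with 5 members separated and higher and 4 separated and lower (9.28% and 7.39% of all genes). RAB1A, the small GTPase of transport from the endoplasmic reticulum to the Golgi (minus strand of chromosome 2, 65070696 to 65130331), stood at 49.02, 68.1 and 70.7 CPM with shRARRES2_1 and at 209.7, 188 and 204.5 CPM with shRARRES2_3. The shGFP libraries, at 178, 187.5 and 175 CPM, lay far above those of shRARRES2_1 (log2 difference between hairpins -1.68, SE 0.26, limma adjusted p = 0.202, 0.00913 with 12 libraries). MTPN, or myotrophin, which binds actin capping protein (minus strand of chromosome 7, 135926761 to 135977353), stood at 42.3, 75.8 and 80.9 CPM with shRARRES2_1 and at 296.5, 353 and 367 CPM with shRARRES2_3. Its shGFP libraries, at 282, 263 and 381.5 CPM, overlapped those of shRARRES2_3 (log2 difference between hairpins -2.38, SE 0.32, limma adjusted p = 0.149, 0.00868 with 12 libraries), and LUZP6 is annotated within the same locus. CAPZA1, the alpha subunit of that capping protein, stood at 65.4, 104 and 106 CPM with shRARRES2_1 and at 264, 264 and 272 CPM with shRARRES2_3. MARCKSL1, an actin-binding substrate of protein kinase C, stood at 14.1, 14.4 and 12.8 CPM with shRARRES2_1 and at 95.2, 57.2 and 42.8 CPM with shRARRES2_3. In both genes the shGFP libraries lay above every shRARRES2_1 library, at 163.5, 191 and 195 CPM and at 59.98, 88.7 and 76.5 CPM.

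INSIG1, the endoplasmic reticulum protein that holds back the SCAP and SREBP complex when sterols are plentiful (plus strand of chromosome 7, 155297776 to 155310235), stood at 53.4, 31.8 and 31.65 CPM with shRARRES2_1 and at 233, 188 and 167 CPM with shRARRES2_3. Its mean was 5.03-fold lower with shRARRES2_1 (log2 difference -2.33, SE 0.30, limma adjusted p = 0.135, 0.138 with 12 libraries). The shGFP libraries, at 30.7, 202 and 74.5 CPM, spanned both hairpins. GFPT2, which controls entry of glucose into the hexosamine pathway, stood at 16.8, 14.7 and 14.9 CPM with shRARRES2_1 and at 54.3, 64.4 and 62.4 CPM with shRARRES2_3. TMX1, a membrane thioredoxin of the endoplasmic reticulum, stood at 21.99, 37.9 and 39.9 CPM with shRARRES2_1 and at 112, 108 and 147 CPM with shRARRES2_3. PIM2, a serine/threonine kinase linked to cell survival, was lower in each shRARRES2_1 library too, at 7.33, 7.41 and 7.64 against 19.7, 28.2 and 23.99 CPM. The rest of the 12 were the spliceosomal cyclophilin PPIL1 (means 9.57 and 49.4 CPM), TOR1AIP1 of the inner nuclear membrane (16.2 and 49.4 CPM), the transcription factor ZNF395 (34.6 and 127 CPM) and the lipocalin-like LCNL1 (3.88 and 30.9 CPM), each lower in every shRARRES2_1 library.

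**Figure D3:**
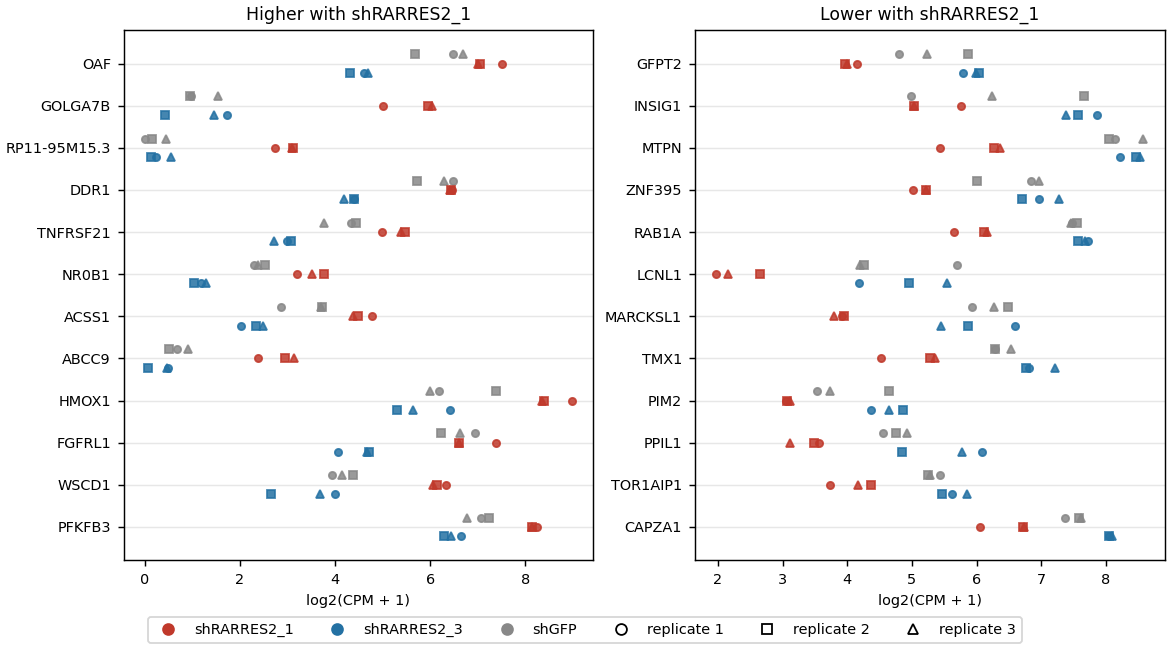
Values of the 24 genes in each library on the log2(CPM + 1) scale (x axis), 12 higher and 12 lower with shRARRES2_1, with replicate number given by the marker and shGFP in grey. The red and blue points do not overlap for any of the 24, by choice of genes, and for 11 of the 12 lower genes the grey points lie wholly apart from the red.

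The position of the control differed between genes. Of the 12 higher genes, shGFP was apart from shRARRES2_1 alone for 4, from shRARRES2_3 alone for 2 and from both for 6. Of the 12 lower genes, it was apart from shRARRES2_1 alone for 7, from both for 4, from shRARRES2_3 alone for 0, and overlapped both for 1, INSIG1. Among all 1311 genes with separated libraries and higher values with shRARRES2_1, shGFP was apart from shRARRES2_1 alone for 638, from shRARRES2_3 alone for 124, from both for 56, and overlapped both for 493. Among the 1043 lower genes these counts were 514, 93, 46 and 390. The libraries of shRARRES2_1, 2 of which were nearly alike, varied less than those of shRARRES2_3, with a median SD of 0.365 against 0.506 log2 units, and its part in these counts was not tested. One control library, shGFP replicate 2, also held keratinocyte markers at a median of 99.3 CPM, against 0 and 2.31 CPM in the other controls and 0.716 to 5.1 CPM in the 6 hairpin libraries. That median covers the 5 of 10 listed markers that were tested. The untested ones stood at 0 to 15.7 CPM in shGFP replicate 2.

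Genes induced by interferon had the largest median difference of the lists over the 6 libraries, at 1.43 log2 units, but 0.65 without shRARRES2_3 replicate 2, where metallothioneins had 0.98. Of 38 listed and tested, 37 had a difference above 0, where 52.7% of all genes did, and the median of all genes was 0.03. In 12 of the 38 all shRARRES2_1 libraries lay above all shRARRES2_3 libraries (9.28% of all genes), in 0 the reverse held, and 0 passed the test. OAS1, a sensor of double-stranded RNA, stood at 128, 93.4 and 95.96 CPM with shRARRES2_1 and at 51.5, 1.35 and 23.99 CPM with shRARRES2_3. OAS2, of the same family, stood at 235, 176 and 178 CPM with shRARRES2_1 and at 89.4, 0.349 and 45.97 CPM with shRARRES2_3. In both, shRARRES2_3 replicate 2 was by far the lowest library and replicate 1 the closest to the other hairpin. IFI27, an interferon-induced mitochondrial protein, was at 999, 826 and 773 CPM and 905, 6.435 and 310.1 CPM, and here replicate 1 of shRARRES2_3 lay among the shRARRES2_1 values.

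The size of that gap depended on the pair of libraries. The median over the 38 genes was 0.30 for replicate 1, 3.52 for replicate 2 and 0.91 for replicate 3, and 31, 36 and 35 of the genes lay above 0. The median level was 79.2, 76.4 and 83.8 CPM in the shRARRES2_1 libraries and 62.4, 4.49 and 37.9 CPM in those of shRARRES2_3. Without shRARRES2_3 replicate 2, 13 of 38 genes were separated and higher with shRARRES2_1 (12% of all genes). In shGFP the median level was 22.2, 5.90 and 101 CPM in replicates 1 to 3, so that the 3 controls ranged from near the lowest shRARRES2_3 library to above every shRARRES2_1 library.

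Antigen presentation and inflammatory genes did not follow 1 direction. Of 17 genes of MHC class I presentation, 12 lay above 0 (median 0.32, but -0.10 without shRARRES2_3 replicate 2), yet 1 was separated and higher (ERAP1) and 3 separated and lower, TAPBP and TAP2 among them (9.28% and 7.39% of all genes). Separated list members that are named without their library values, here and for other lists, were chosen after their values were seen. TAPBP, or tapasin, which loads peptides, stood at 302, 287 and 304 CPM with shRARRES2_1 and at 508, 452 and 591 CPM with shRARRES2_3. Of 22 chemokine and inflammatory genes, 18 lay above 0 (median 0.76), 4 were separated and higher and 1 was separated and lower (9.28% and 7.39% of all genes). Without shRARRES2_3 replicate 2 the median was 0.20. The cytokine IL1B stood at 2.97, 16.7 and 16.2 CPM with shRARRES2_1 and at 0.232, 0.599 and 0.978 CPM with shRARRES2_3, with replicate 1 the lowest in each group. CCL20, which attracts lymphocytes and dendritic cells, was at 0.531, 17.1 and 16.1 CPM with shRARRES2_1 and at 0, 0 and 2.096 CPM with shRARRES2_3, so its groups overlapped through shRARRES2_1 replicate 1. ICAM1, an adhesion molecule for leukocytes, was the separated gene in the other direction, at 193, 183 and 186 against 214, 309 and 450.4 CPM.

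**Figure D4:**
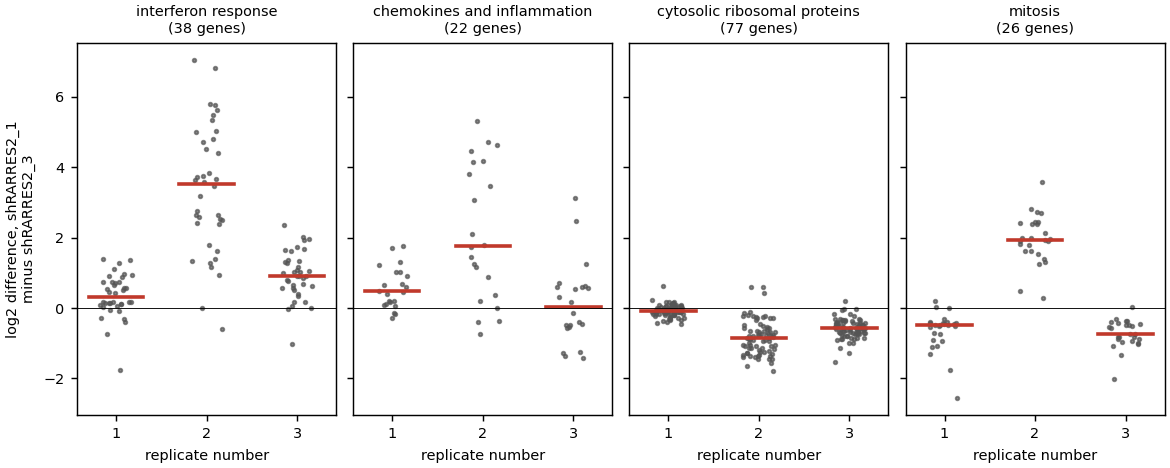
Each point is 1 gene, and the y axis gives its log2 difference (shRARRES2_1 minus shRARRES2_3) within the pair of libraries of 1 replicate number (x axis) for 4 gene lists; red bars are medians. The replicate 2 pair stands highest for interferon response (3.52) and mitosis (1.94), and the mitosis medians of replicates 1 and 3 lie below 0, at -0.48 and -0.74.

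Metallothioneins, small proteins that bind zinc and copper, had a median difference above 0 in each pair of libraries (1.04, 1.51 and 0.76 log2 units). Of 10 listed genes 6 were tested, 5 lay above 0, and 3 were separated and higher (9.28% of all genes). The median level of the 6, however, was 23.8, 41.7 and 44 CPM with shRARRES2_1 and 33.9, 20.3 and 47.2 CPM with shRARRES2_3, and so was lower with shRARRES2_1 in replicates 1 and 3. MT2A stood at 2742, 1566 and 1517 CPM with shRARRES2_1 and at 456, 314 and 539 CPM with shRARRES2_3 (mean 1940 ± 693 against 436 ± 114, SD, n = 3 each; log2 difference 2.13, SE 0.42, limma adjusted p = 0.288). MT1E stood at 571.5, 430.5 and 419 CPM with shRARRES2_1 and at 124, 23.4 and 231 CPM with shRARRES2_3. MT1F, named after its values were seen, stood at 25.2, 18.4 and 18.3 CPM and at 12.4, 5.19 and 7.69 CPM. These genes lie in a cluster of near-identical copies on chromosome 16, so that the share of reads given to each is uncertain. The shGFP libraries, at 787, 1004 and 1607 CPM for MT2A, overlapped those of shRARRES2_1.
Metallothionein genes are switched on through metal response elements. The stretch shown holds 2 of the 7 matches, on either strand, to their core TGCACNC or TGCGCNC in the 250 bases before the MT2A start (RefSeq, GRCh38.p14). It begins 176 bases before that start, on the plus strand at chr16:56608408-56608437, and capitals mark the matches.
MT2A: cgcggcccGTGTGCAgagccgggTGCGCCC
The matches do not overlap, and of 35116 RefSeq promoters of the same length 24.8% hold at least 1 and 0.0313% as many as 7. A match is a description of the sequence and not evidence that a factor binds there.

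Genes of the urokinase and plasminogen system, which sets off proteolysis at the cell surface, all lay above 0 among the 10 tested (median 0.83). Of these, 4 were separated and higher (9.28% of all genes), SERPINB2, PLAT and SERPINB8 among them. SERPINB2, an inhibitor of plasminogen activators, stood at 5.47, 27.3 and 26.3 CPM with shRARRES2_1 and at 0.811, 0 and 0.0466 CPM with shRARRES2_3 (log2 difference 3.79, SE 0.62, limma adjusted p = 0.239, 0.00913 with 12 libraries). PLAT, tissue plasminogen activator, stood at 55.1, 93.4 and 96.1 CPM with shRARRES2_1 and at 13.6, 0.549 and 26.9 CPM with shRARRES2_3, where replicate 2 was the lowest. Without shRARRES2_3 replicate 2 the median of the list was 0.46 and 5 of 10 genes were separated and higher (12% of all genes).

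Of 28 matrix genes tested, 17 lay above 0 (median 0.38, but -0.01 without shRARRES2_3 replicate 2), 5 were separated and higher (TNC, COL4A1 and COL4A2 among them) and 5 separated and lower (BGN, COL6A2, COL5A1, COL6A1 and TGFBI), where 9.28% and 7.39% of all genes were. TNC, the matrix glycoprotein tenascin C, stood at 578, 874 and 912 CPM with shRARRES2_1 and at 224, 32.2 and 159.7 CPM with shRARRES2_3. BGN, the proteoglycan biglycan, stood at 10.6, 1.502 and 1.67 CPM with shRARRES2_1 and at 22.3, 31.9 and 26.6 CPM with shRARRES2_3, and replicate 1 was the high one of shRARRES2_1. ITGA2, the alpha chain of a collagen-binding integrin, stood at 20.1, 58.7 and 59.8 CPM with shRARRES2_1 and at 8.81, 10.8 and 11.2 CPM with shRARRES2_3. ITGA6, of the laminin-binding integrins, was at 74.9, 81.2 and 90.7 against 57.9, 3.84 and 51.2 CPM. Of 16 integrin genes tested (median 0.24, -0.01 without both replicate 2 libraries), 3 were separated and higher (ITGA2, ITGA6 and ITGB6) and 1 was separated and lower (ITGB4), against 9.28% and 7.39% of all genes.

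Feedback and immediate early genes of the ERK pathway lay above 0 in most cases (20 of 24, median 0.49). Of these, 7 were separated and higher and 1, DUSP1, was separated and lower (9.28% and 7.39% of all genes). DUSP5, a phosphatase that acts on ERK in the nucleus, stood at 103, 164 and 177 CPM with shRARRES2_1 and at 37.85, 71.5 and 48.4 CPM with shRARRES2_3. ETV5, a transcription factor induced by ERK, stood at 96.1, 62.6 and 65.6 CPM with shRARRES2_1 and at 48.05, 19.95 and 35.9 CPM with shRARRES2_3. Without shRARRES2_3 replicate 2 the separated counts were 7 higher and 4 lower (12% and 13.4% of all genes). Of 15 mesenchymal and epithelial regulators tested, 10 lay above 0 (median 0.24). In that list 1 gene was separated and higher and 1 separated and lower (9.28% and 7.39% of all genes). CLDN4, a claudin of tight junctions, was the higher one, at 86.1, 80.4 and 80.5 CPM with shRARRES2_1 and 31.8, 23.25 and 24.6 CPM with shRARRES2_3. Its shGFP libraries lay between, at 33.2, 38.9 and 43.7 CPM. CDH16, of the same list, was lower with shRARRES2_1 in each pair, at 4.46, 0.291 and 1.05 against 12.75, 3.59 and 14.4 CPM, but its groups overlapped.

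Targets of the hypoxia-inducible factors were divided evenly, 12 of 24 above 0 and 12 below (52.7% and 47.3% of all genes), with a median of -0.03 that turned to 0.04 without shRARRES2_3 replicate 3 and to 0.01 with plain CPM. Of these, 5 were separated and higher, PFKFB3, SLC2A1, PLIN2 and ANGPTL4 among them, and 3 were separated and lower (BHLHE40, P4HA1 and CA9), against 9.28% and 7.39% of all genes. SLC2A1, the glucose transporter GLUT1, stood at 831, 427 and 419 CPM with shRARRES2_1 and at 300.3, 159.5 and 191 CPM with shRARRES2_3. PLIN2, which coats lipid droplets, stood at 456, 539.6 and 523 CPM with shRARRES2_1 and at 277, 343 and 197 CPM with shRARRES2_3. VEGFA, the angiogenic growth factor, overlapped, at 311, 461 and 447 CPM against 411, 1268 and 1124 CPM, since shRARRES2_3 replicate 1 lay within the range of shRARRES2_1. All 6 VEGFA values but those of shRARRES2_3 replicates 2 and 3 lay below the shGFP libraries, at 2040, 911 and 2738 CPM. Without shRARRES2_3 replicate 2, 5 targets were separated and higher and 7 separated and lower (12% and 13.4% of all genes).

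Lipid and energy genes showed small medians. Among 21 genes of cholesterol synthesis and uptake, 15 lay below 0 (47.3% of all genes; median -0.15) and INSIG1 alone was separated (7.39% of all genes). Without both replicate 1 libraries 15 of 21 were separated and lower, where 28.6% of all genes were. That median ranged from -0.70 without shRARRES2_1 replicate 1 to 0.04 without shRARRES2_1 replicate 3. Of 16 genes of fatty acid synthesis and desaturation, 12 lay below 0 (median -0.20) and 3 were separated and lower (FADS1, ELOVL7 and ELOVL6; 7.39% of all genes). FADS1, a desaturase for polyunsaturated fatty acids, stood at 159, 102 and 102.5 CPM with shRARRES2_1 and at 259.8, 186 and 203 CPM with shRARRES2_3. Of 23 genes of fatty acid oxidation, 13 lay above 0 and 10 below (median 0.06, but -0.16 without shRARRES2_3 replicate 2). CPT1A, the carnitine palmitoyltransferase that admits fatty acids to mitochondria, was separated, at 66.65, 54.8 and 55.4 CPM with shRARRES2_1 and at 51.2, 4.34 and 16.96 CPM with shRARRES2_3, but shRARRES2_3 replicate 1 lay close to the other group. Of 16 ferroptosis defence genes, 14 lay above 0 (median 0.32), and HMOX1 and GCLC, which starts glutathione synthesis, were separated and higher (9.28% of all genes). Genes of coenzyme Q synthesis were split 5 above and 6 below, and those of complex I 16 above and 21 below, with medians of -0.04 and -0.02 that turned to 0.00 and 0.02 with plain CPM and moved when single libraries were left out (0.17 and 0.32 without shRARRES2_3 replicate 1).

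**Figure D5:**
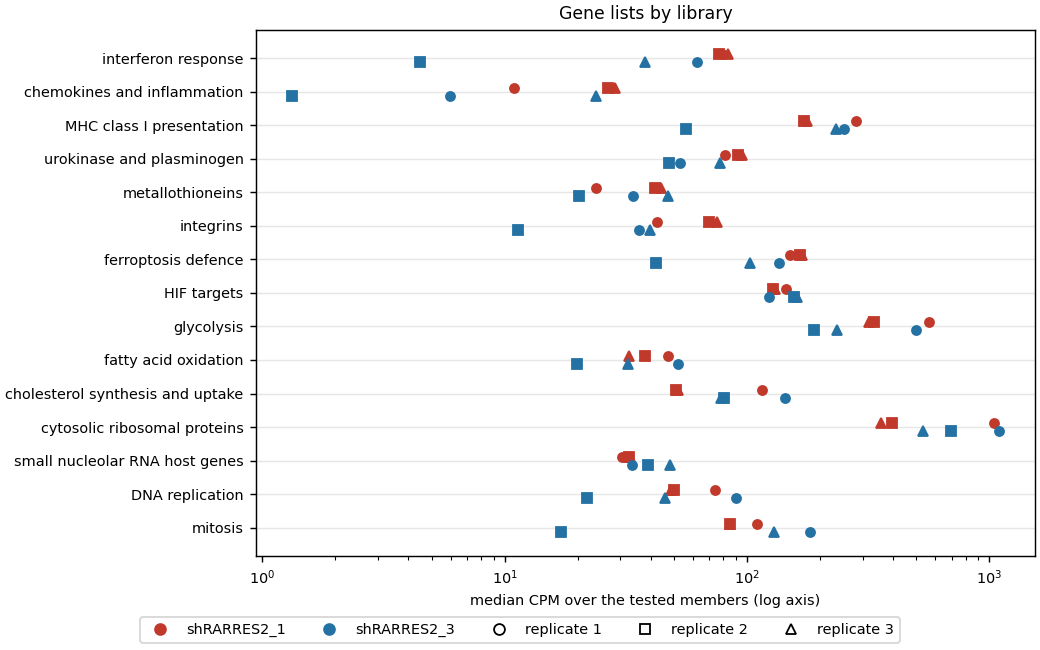
Median level over the tested members of 15 gene lists in each library (x axis, CPM on a log scale), with colour for the hairpin and marker for the replicate number. For interferon response the 3 shRARRES2_1 libraries sit at 76.4 to 83.8 CPM, above all 3 of shRARRES2_3 at 4.49 to 62.4 CPM, whereas for mitosis they sit within the shRARRES2_3 range of 17.1 to 182 CPM.

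Lists of growth and division genes depended on which libraries were kept. Of 77 cytosolic ribosomal protein genes, 75 lay below 0 (median -0.53), but 1, RPL7, had separated libraries (7.39% of all genes). In 48 of the 77 all 3 same-numbered pairs were lower (21.7% of all genes), and 13 had a blocked unadjusted limma p under 0.05 and were lower (8.28% of all genes). The pair medians were -0.08, -0.84 and -0.58, and the median was -0.18 without shRARRES2_3 replicate 1 and -0.98 without shRARRES2_1 replicate 1. Without both replicate 1 libraries 71 of 77 were separated and lower, where 28.6% of all genes were. RPS3A stood at 525, 93.7 and 88.03 CPM with shRARRES2_1 and at 570.3, 325 and 177 CPM with shRARRES2_3, and replicate 1 was the high library in each. Many ribosomal protein genes have processed pseudogenes, so their counts are uncertain. Of 26 mitosis genes, 20 lay above 0 (median 0.25) and 0 were separated. Their median level was 110, 84.9 and 85.3 CPM with shRARRES2_1 and 182, 17.1 and 129 CPM with shRARRES2_3, where replicate 2 was the low library. Their median turned to -0.74 without shRARRES2_3 replicate 2 and to -0.07 without shRARRES2_1 replicate 1, and in the former case 15 of 26 were separated and lower (13.4% of all genes). TOP2A, the topoisomerase of dividing cells, stood at 112, 145 and 161 CPM with shRARRES2_1 and at 660.1, 118.5 and 650 CPM with shRARRES2_3, where replicate 2 lay among the shRARRES2_1 values. The 34 DNA replication genes had a median of 0.42, which turned to -0.18 without shRARRES2_3 replicate 2 and to -0.02 without both replicate 2 libraries.

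Among the host genes of small nucleolar RNAs, 10 of 14 lay below 0 (median -0.34), and 5 were separated and lower against 1 separated and higher (7.39% and 9.28% of all genes). SNHG16 stood at 21.8, 23.6 and 20.5 CPM with shRARRES2_1 and at 57.4, 39.7 and 50.2 CPM with shRARRES2_3. The counts were again 5 and 1 without shRARRES2_3 replicate 2. TMEM107, which hosts a small nucleolar RNA and encodes a ciliary protein, was the higher one, at 12.9, 14.05 and 14.6 against 11.4, 2.245 and 4.33 CPM. In the small RNA pathway, through which hairpins act, 6 of 13 genes lay above 0 and 7 below, with a median of -0.06 (0.13 without shRARRES2_3 replicate 3). PRKRA, a partner of Dicer, stood at 17.4, 17.9 and 19.2 CPM with shRARRES2_1 and at 41.4, 50.2 and 41.97 CPM with shRARRES2_3, and its shGFP libraries, at 39.9, 63.1 and 47.5 CPM, did not overlap those of shRARRES2_1 (log2 difference between hairpins -1.24, SE 0.24, limma adjusted p = 0.288). AGO3, an Argonaute protein, overlapped, at 16.5, 35.2 and 38.9 CPM with shRARRES2_1 and at 27.2, 153.5 and 66.98 CPM with shRARRES2_3.

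Lysosomal and folding genes ended the lists. Of 30 lysosomal genes, 23 lay above 0 (median 0.30), 6 were separated and higher and 3 separated and lower (9.28% and 7.39% of all genes). CTSS, a cysteine protease, stood at 20.98, 64.3 and 69.75 CPM with shRARRES2_1 and at 13.6, 2.69 and 13.55 CPM with shRARRES2_3, while GAA, which breaks down glycogen in lysosomes, was on the other side at 28.7, 35.8 and 33.9 against 35.8, 141 and 65.8 CPM. Of 25 genes of ATF4 and the unfolded protein response, 16 lay above 0 (median 0.16, but -0.21 without shRARRES2_3 replicate 2), with 1 separated and higher (EDEM1) and 4 separated and lower (9.28% and 7.39% of all genes). MTHFD2, a mitochondrial folate enzyme induced by ATF4, stood at 74.2, 68.04 and 69.2 CPM with shRARRES2_1 and at 152, 106.5 and 227 CPM with shRARRES2_3. CRYAB, a small heat shock protein, was the 1 separated gene of 16 in its list, where 9.28% of all genes were separated and higher. It stood at 64.95, 40.3 and 41.6 CPM with shRARRES2_1 and at 28.05, 8.18 and 5.08 CPM with shRARRES2_3. Of 12 keratins tested, 11 lay above 0 (median 0.30, but -0.12 without shRARRES2_1 replicate 1), and KRT7 and KRT81 were separated and higher (9.28% of all genes). KRT81 stood at 11.8, 19.8 and 18.1 CPM with shRARRES2_1 and at 5.39, 0.698 and 7.17 CPM with shRARRES2_3, and close family members may share its reads. Of 11 retinoid response genes tested, 7 lay above 0 (median 0.58), with pair medians of -0.40, 0.91 and 0.19. Of these 11, 3 were separated and higher and 2 separated and lower (9.28% and 7.39% of all genes). RARRES1, another gene first described as a responder to retinoids, was lower in each shRARRES2_1 library, at 4.41, 6.25 and 5.49 against 6.897, 40.5 and 18.5 CPM. ALDH1A1, of the same list, was higher, at 9.51, 17.5 and 17.9 against 5.91, 1.05 and 7.03 CPM.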

How the data were processed

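The 6 libraries of shRARRES2_1 and shRARRES2_3 were taken from 1 table of all 12 libraries, with groups and replicate numbers read from the sample titles. The submitters' processing notes list the build hg38 (GRCh38) and the tools STAR 2.5.2, Trim Galore 0.6.1, edgeR and CASAVA, while the annotation and strand setting for counting are not given in the sources used here. The authors deposited CPM after TMM normalization, a signal scaled to depth, with scaling factors of 0.788 to 1.15 in these libraries. The design had expected plain CPM, and the test was kept. Division by the value of 1 read gave whole reads for 100% of values at a tolerance of 1e-06, so depth is known. Counting error is small against the spread between libraries except near 1 CPM.

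Values were tested as log2(CPM + 1) with limma 3.58.1 in R 4.3.3 on the 6 libraries (eBayes with a trend, Benjamini-Hochberg threshold 0.05), and all differences are shRARRES2_1 minus shRARRES2_3 on that scale, which understates those of low genes. edgeR 4.0.16 (quasi-likelihood) and DESeq2 1.42.0 used the recovered reads. The limma and edgeR steps, but not DESeq2, were tested on simulated data. Those data held no deviation shared by replicate number, unlike these libraries. Of the tested identifiers 14114 matched GENCODE 29, which gave coordinates (1-based). Genes overlapping on either strand may share reads.

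Deviations of same-numbered libraries from their group means correlated at 0.766, 0.499 and 0.436, so a replicate block was also fitted. Because shRARRES2_1 replicates 2 and 3 were nearly alike, their correlations with the crossed libraries of shRARRES2_3 were similar, at 0.412 and 0.493. Deviations sum to 0 within a hairpin, so the values for replicates 2 and 3 depend on replicate 1. They cannot show that the numbers 2 and 3 pair. The named genes were RARRES2, its receptors and EPAS1, 12 genes in each direction, list members with the highest level or largest difference, and genes sharing a deviation by replicate number. The members and lists were chosen with earlier results of these data known. A few further list members are not reported here. Alternatives covered the pseudocount, filter, scaling, spread estimate, block, tool, threshold and left-out libraries.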

Additional observations from a re-analysis of the deposited data

How the results depend on the processing

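The count of 0 genes at a limma adjusted p under 0.05 was also 0 with another pseudocount, filter or scaling, without a trend, at an adjusted p under 0.1, with edgeR, and with the replicate block in limma (smallest adjusted p 0.0524) and edgeR (0.0595). It was 0 to 0 when 1 library or both libraries of a replicate number were left out. It was 29 with the spread from all 12 libraries, 25 with those and the replicate block (chosen after seeing the data, as was leaving out pairs; 22 genes shared with the 29), 320 with DESeq2 and 11015 with library weights, a fit that did not converge and whose libraries include the nearly identical shRARRES2_1 replicates 2 and 3. The cause of the other differences in count was not tested. For RARRES2 the log2 difference was -0.17 with the replicate block too, -0.24 to -0.09 when 1 library or pair was left out, and 0.02 with library weights, for which the cause was not tested. GPR1, at -0.55, ranged from -1.36 without shRARRES2_3 replicate 2 to 0.01 without replicate 3. Over all named genes and alternatives, 1689 values kept direction and side of the threshold, and 154 were past it under the alternative alone. The replicate block changed no call in the fits on 6 libraries, which had 0 calls. The 24 named genes kept their direction in 545 of 545 values over 23 alternatives, library weights not counted. These genes were chosen for separated libraries, so leaving out libraries could not reverse them. The count therefore supports nothing further. Low depth limits genes near 1 CPM.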
